A study of Mus musculus with 6 samples.

Results

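The receptors for steroid hormones were measured in the mouse uterus by 17 probe sets for 7 genes, out of 45037 probe sets that are not controls and 18193 named genes on the array. The 7 genes were Pgr, Esr1, Esr2, Nr3c1 and Nr3c2, which encode the nuclear receptors for progesterone, oestrogen (alpha and beta), glucocorticoid and mineralocorticoid, and Pgrmc1 and Pgrmc2, which encode a pair of membrane proteins. A probe set, a group of short oligonucleotides for one transcript, was taken where the platform annotation gave it 1 gene symbol equal to one of these names. Nr3c1 had 6 probe sets, Pgr and Esr1 had 3 each, Pgrmc2 had 2, and Esr2, Nr3c2 and Pgrmc1 had 1 each.

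RNA came from the uterine horn of ovariectomized female mice, 8 weeks old and of mixed background, that were GATA2 f/f, the usual notation for a homozygous floxed allele. The groups were P4, the usual abbreviation of progesterone, with 3 arrays, and Oil, with 3 arrays. Both groups carried the GATA2 f/f alleles, and the labels name no Cre line, dose or time for either. The labels do not say that the 3 samples of a group came from separate animals, so each p-value is set against a spread among 3 samples that may be only technical.

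Nuclear steroid receptors are transcription factors that bind their hormone, pair up on DNA and change the transcription of nearby genes. In the uterus, oestrogen acting through the alpha receptor induces the progesterone receptor in several cell layers, and progesterone then limits the response to oestrogen. The progesterone, glucocorticoid and mineralocorticoid receptors recognise the same DNA element. Pgrmc1 and Pgrmc2 belong to another family: they are haem-binding proteins of internal membranes and do not share the DNA-binding domain of the nuclear receptors.

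Promoter sequence is shown for one receptor gene that was lower after P4 and one that did not pass the test, as context for the values. Both windows hold the 250 bases before the start site in RefSeq, build GRCm38.p6, given 5′ to 3′ on the gene's strand. The first of the Esr1 windows in RefSeq (chr10:4611739-4611988, plus strand) lies on the first line and Pgrmc1 (chrX:36597943-36598192, plus strand) on the second. Capitals mark matches on either strand to any of 5 short sequences. The first, AGAACA, is the core of the element shared by the progesterone, glucocorticoid and mineralocorticoid receptors, and the next, GGTCA, is the core of the oestrogen element. The others are the GATA site AGATAA, the GC box GGGCGG and the CCAAT box.
Esr1: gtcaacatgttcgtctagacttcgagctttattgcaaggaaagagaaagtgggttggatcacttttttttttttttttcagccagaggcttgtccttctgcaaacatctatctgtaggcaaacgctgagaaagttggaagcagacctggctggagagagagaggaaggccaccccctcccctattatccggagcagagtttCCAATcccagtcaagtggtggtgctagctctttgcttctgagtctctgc
Pgrmc1: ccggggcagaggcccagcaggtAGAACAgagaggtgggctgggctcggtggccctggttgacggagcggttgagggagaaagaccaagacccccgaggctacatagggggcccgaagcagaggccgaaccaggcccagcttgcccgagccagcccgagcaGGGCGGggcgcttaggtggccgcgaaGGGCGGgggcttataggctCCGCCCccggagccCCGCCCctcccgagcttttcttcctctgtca
This Esr1 window held 1 match, to CCAAT, from base -49 to base -45. The Pgrmc1 window held 1 AGAACA, from -228 to -223, and 4 GC boxes. Of 32851 mouse promoter windows of the same length, 16.08% held AGAACA, 35.24% held GGTCA, 9.988% held AGATAA, 32.74% held GGGCGG and 33.85% held CCAAT, each counted on both strands.

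Promoter windows were matched for 6 of the 7 receptor genes (all but Nr3c1), and the matches describe letters and not bound sites. The windows for Pgr and Nr3c2, and a second Esr1 window at chr10:4709908-4710157, lie inside the span RefSeq gives those genes and are not printed. The second Esr1 window held none of the 5 sequences. The Pgr window held 1 GC box and 1 CCAAT match and none of the other 3 sequences. The Nr3c2 window held 2 GGTCA matches, 3 GC boxes and 3 CCAAT matches. Of the receptor genes that were not called, Esr2 also held 2 GGTCA matches, with 1 CCAAT match, and Pgrmc2 held 2 GC boxes and 2 CCAAT matches.

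The 6 arrays had median intensities between 117.18 and 122.79, and any 2 arrays correlated between 0.972 and 0.992 over all probe sets. Markers of uterine epithelium, stroma and smooth muscle were bright, with the dimmest marker of each list averaging 240.5, 457.8 and 406.4, while the 5 oviduct and ovary markers summed to 397.4 to 529.0 after P4 and 442.1 to 521.3 after Oil. The 9 hybridisation control probe sets were 0.15 lower on the log2 scale in P4 arrays. The ratio of the 3′ to the 5′ Gapdh control was 1.5 to 2.37 in P4 and 1.53 to 1.84 in Oil. For the Actb control it was 1.73 to 2.60 in P4 and 1.97 to 2.27 in Oil. P4 replicate 1 had the highest ratio for both controls, at 2.37 and 2.60.

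Transcripts of 4 of the 5 nuclear receptors were lower after P4 than after Oil: Pgr by the widest margin, then Nr3c2, Nr3c1 and Esr1. Esr2, Pgrmc1 and Pgrmc2 did not pass the test. Differences are given as P4 minus Oil on the scale of log2(intensity + 16), where 16 was added to every intensity so that dim probe sets do not dominate, which understates the change of dim ones. A gene is represented by its brightest probe set, and it was called where the limma adjusted p over all 18193 genes was under 0.05. By that rule 4 of the 7 receptor genes were lower and 0 higher. Of all genes, 6.94% were lower, 6.08% higher and 13% called in either direction. An unadjusted limma p under 0.05 was reached by 5 of the 7. The share of all genes or probe sets at that unadjusted threshold was not counted. Counts at it, here and below, therefore have no background to be read against. The median difference was -0.36 over the 7 receptor genes and -0.52 over the 5 nuclear receptors, beside -0.01 over all genes. These are whole-tissue samples, in which fewer cells of a type and less RNA per cell cannot be told apart.

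Pgr encodes the progesterone receptor, which carries the effects of P4 itself. Its brightest probe set, 1439527_at, read 2127, 1974 and 2192 in P4 replicates 1 to 3, against 4124, 3849 and 3472 in Oil replicates 1 to 3. Every P4 array was below every Oil array, and the lowest Oil array was well above the highest P4 array. The means were 2098 ± 112 in P4 and 3815 ± 327 in Oil (SD, n = 3 each), a ratio of 0.550. The difference was -0.86 ± 0.08 (SE; 95% interval -1.05 to -0.66), with a limma adjusted p of 0.00124. From the lowest difference up, Pgr ranked 180 of 18193 genes.

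The other two Pgr probe sets gave the same direction. Probe set 1455772_at read 146.1, 152.5 and 120.3 in P4, against 200.5, 238.5 and 178.9 in Oil. Probe set 1421444_at read 106.9, 114.6 and 113.0 in P4, below the median of each P4 array, against 199.0, 167.9 and 150.7 in Oil. Neither overlapped between groups, and the differences were -0.51 (limma adjusted p over all probe sets 0.0437) and -0.56 (0.0173). The call for 1455772_at was lost without any single array other than Oil replicate 3 (differences -0.57 to -0.41 in those fits). It was also lost with quantile normalization (limma adjusted p = 0.0629), with median centring (0.0643) and after control scaling (-0.36, 0.131). The call for 1421444_at was lost without P4 replicate 2, Oil replicate 1 or Oil replicate 2 (-0.57 to -0.46) and after control scaling (-0.40, 0.0622).

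**Figure D1:**
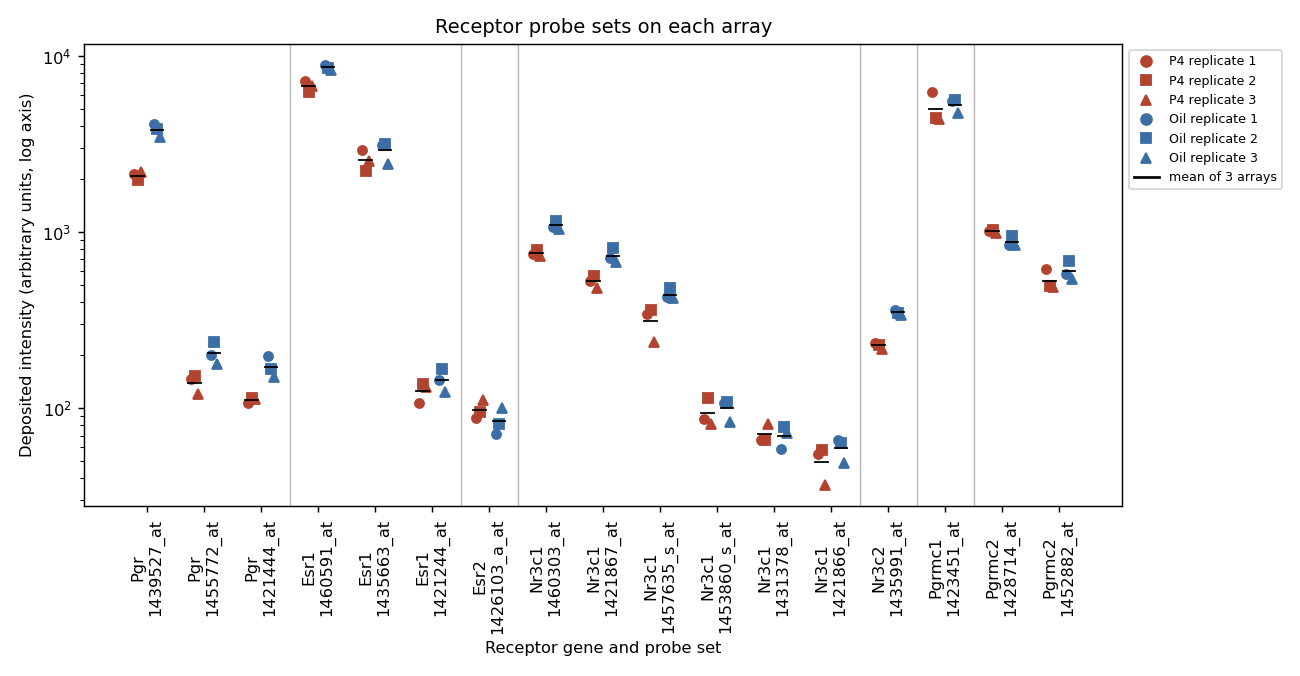
Deposited intensity (arbitrary units, log axis) of the 17 receptor probe sets, with P4 arrays left of Oil arrays in each column, 1 point per array and a bar at the mean of 3 arrays. For Pgr 1439527_at the P4 arrays sit at 1974 to 2192 and the Oil arrays at 3472 to 4124. Without overlap, 8 of the 17 probe sets show P4 below Oil and 1 shows P4 above. Of all probe sets, 14.2% and 12.4% do.

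Nr3c2 encodes the mineralocorticoid receptor, which binds aldosterone and corticosterone and also binds progesterone. Its 1 probe set, 1435991_at, read 235.5, 229.3 and 217.4 in P4, against 360.7, 348.8 and 340.3 in Oil. The groups did not overlap and the spread within each was small, at 227 ± 9.24 in P4 and 350 ± 10.2 in Oil (SD, n = 3 each). The difference was -0.59 ± 0.08 (95% interval -0.77 to -0.40), with a limma adjusted p of 0.00403.

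Nr3c1 encodes the glucocorticoid receptor, which responds to corticosterone in mice. Its brightest probe set, 1460303_at, read 753.8, 788.8 and 734.4 in P4, against 1075, 1164 and 1049 in Oil. The highest P4 array was below the lowest Oil array, with means of 759 ± 27.6 in P4 and 1096 ± 60.2 in Oil (SD, n = 3 each). The difference was -0.52 ± 0.08 (95% interval -0.70 to -0.34), with a limma adjusted p of 0.00556. Averaging all 6 Nr3c1 probe sets in place of the brightest gave -0.29 and ended the call (limma adjusted p = 0.0900).

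Among the other 5 Nr3c1 probe sets, 2 did not overlap between groups and 3 did. Probe set 1421867_at read 527.6, 567.3 and 484.8 in P4, against 710.8, 811.3 and 679.9 in Oil, a difference of -0.47 (limma adjusted p = 0.0275). Probe set 1457635_s_at read 345.3, 359.2 and 238.9 in P4, against 427.5, 479.1 and 420.4 in Oil, a difference of -0.49. In both, the highest P4 array was below the lowest Oil array. The second missed the threshold (limma adjusted p = 0.0863) and passed it with the replicate number as a block (0.0187), and the call for 1421867_at was lost without any single array other than Oil replicate 3 (adjusted p up to 0.112) and after control scaling (-0.31, 0.122).

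The remaining 3 Nr3c1 probe sets were dimmer than the array medians and overlapped between groups. Probe set 1453860_s_at read 81.2 to 114.6 in P4 and 84.1 to 108.2 in Oil, and 1431378_at read 65.9 to 81.0 in P4 and 58.6 to 78.6 in Oil. Probe set 1421866_at read 36.6 to 57.9 in P4 and 48.9 to 66.3 in Oil. Their differences were -0.08, 0.02 and -0.21, with limma adjusted p of 0.828, 0.951 and 0.510. None of these 3 separated the groups.

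Esr1 encodes oestrogen receptor alpha, the main oestrogen receptor of the uterus. Its brightest probe set, 1460591_at, read 7174, 6211 and 6797 in P4, against 8899, 8598 and 8377 in Oil. All 3 P4 arrays were below all 3 Oil arrays, with means of 6727 ± 485 in P4 and 8625 ± 262 in Oil (SD, n = 3 each). The difference was -0.36 ± 0.07 (95% interval -0.52 to -0.20), with a limma adjusted p of 0.0153. The call was lost without Oil replicate 1 (limma adjusted p = 0.0743) or Oil replicate 2 (0.0677), when its 3 probe sets were averaged (-0.24, 0.120), and when arrays were scaled to the hybridisation controls (-0.21, 0.0827).

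The other Esr1 probe sets overlapped between groups. Probe set 1435663_at read 2915, 2225 and 2530 in P4, against 3133, 3149 and 2451 in Oil. Probe set 1421244_at read 106.7, 136.7 and 132.3 in P4, against 145.0, 166.9 and 123.6 in Oil. In each, Oil replicate 3 fell within the P4 range. Both differences were -0.19, with limma adjusted p of 0.486 and 0.487.

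Esr2 encodes oestrogen receptor beta, which binds the same hormone. Its 1 probe set, 1426103_a_at, read 88.5, 95.3 and 111.4 in P4, against 71.2, 81.2 and 100.9 in Oil, below the median of every array. The groups overlapped, with means of 98.4 ± 11.7 in P4 and 84.4 ± 15.1 in Oil (SD, n = 3 each). The difference was 0.19 ± 0.13 (95% interval -0.11 to 0.50), with a limma adjusted p of 0.427. At this brightness the probe set was not shown to be above background, so a decrease of Esr2 cannot be bounded from it.

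Pgrmc1 and Pgrmc2 take part in haem handling and in non-classical progesterone responses. Pgrmc1 probe set 1423451_at read 6218, 4461 and 4388 in P4, against 5553, 5626 and 4731 in Oil. P4 replicate 1 was above all Oil arrays and the other P4 arrays were below them, so the groups overlapped. The difference was -0.09 ± 0.14 (95% interval -0.42 to 0.23), with a limma adjusted p of 0.766. Without P4 replicate 1 it was -0.26 (limma adjusted p = 0.126), and in 2 other settings it turned positive.

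The 2 Pgrmc2 probe sets pointed in opposite directions. Probe set 1428714_at read 1012, 1027 and 988.9 in P4, against 850.0, 949.2 and 842.0 in Oil. All P4 arrays were above all Oil arrays, with means of 1009 ± 19.2 in P4 and 880 ± 59.7 in Oil (SD, n = 3 each). The difference was 0.20 ± 0.08 (95% interval 0.02 to 0.38), which missed the threshold in the fit over genes (limma adjusted p = 0.153). After control scaling it was 0.35 and passed in that fit (0.0401). In the fit over all probe sets, 1428714_at missed the threshold both as reported (0.226) and after control scaling (0.0533). Probe set 1452882_at read 614.0, 493.5 and 485.9 in P4, against 579.2, 688.3 and 543.6 in Oil, overlapping, at -0.18 (limma adjusted p = 0.496).

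Over all 17 receptor probe sets, 7 were called lower and 0 higher (9 had an unadjusted p under 0.05) in the limma fit over 45037 probe sets, against 4.49% of all probe sets lower, 4.13% higher and 8.62% called in either direction. The median difference was -0.21. Groups did not overlap in 8 probe sets with P4 below Oil and 1 with P4 above Oil, against 14.2% and 12.4% of all probe sets (26.6% either way). At the gene level, 4 receptors lay below and 1 above without overlap, against 17.5% and 14.3% of all genes (31.8% either way). With the replicate number as a block, 4 receptor genes and 8 receptor probe sets were called lower. That fit called 11.6% of all genes and 3606 of all 45037 probe sets lower. In either direction it called 20.9% of all genes and 14.8% of all probe sets. The 7 probe sets called without the block were the 3 of Pgr, 1 of 3 of Esr1, 2 of 6 of Nr3c1 and the 1 of Nr3c2.

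**Figure D2:**
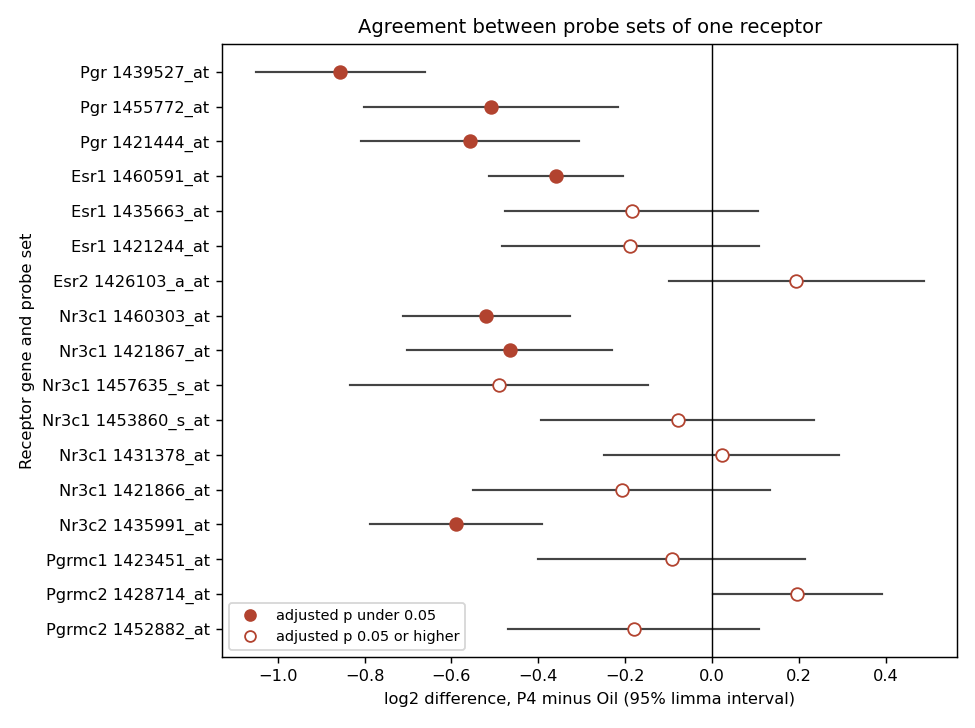
log2 difference, P4 minus Oil, of each receptor probe set with its 95% limma interval, filled where the adjusted p over all probe sets was under 0.05. The 3 Pgr probe sets lie between -0.86 and -0.51, the 6 Nr3c1 probe sets spread from -0.52 to 0.02, and the 2 Pgrmc2 probe sets lie on opposite sides of 0.

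Probe sets of one gene were set against each other within each array. The difference of 1439527_at minus that of 1421444_at was -0.30 ± 0.07 for Pgr, without overlap between groups, and for Nr3c1 the differences of 1460303_at minus those of 1453860_s_at and 1431378_at were -0.44 ± 0.13 and -0.54 ± 0.14. For Pgrmc2 the 2 probe sets differed by 0.38 ± 0.11. Each of these 4 had an exact two-sided permutation p of 0.1, the smallest that 3 against 3 arrays allow, and 0.2 after adjustment over the 16 pairs tested. No pair could therefore reach 0.05. The rest of the 10 pairs within a receptor overlapped between groups, with exact permutation p of 0.2 or more. For Pgr, 1439527_at minus 1455772_at gave -0.35 ± 0.17. For Esr1, 1460591_at minus 1435663_at gave -0.17 ± 0.11 and minus 1421244_at -0.17 ± 0.19. For Nr3c1, 1460303_at minus 1421867_at gave -0.05 ± 0.05, minus 1457635_s_at -0.03 ± 0.15 and minus 1421866_at -0.31 ± 0.16.

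The same test compared the 4 called receptors with each other over their 6 pairs. Pgr was lower relative to Esr1 by a difference of -0.50 ± 0.06, to Nr3c1 by -0.34 ± 0.10 and to Nr3c2 by -0.27 ± 0.08 (SE over arrays, P4 minus Oil). Each had an exact permutation p of 0.1 (adjusted 0.2) and no overlap. The Esr1 minus Nr3c2 difference was 0.23 ± 0.06, with the same p. Esr1 minus Nr3c1, at 0.16 ± 0.10, and Nr3c1 minus Nr3c2, at 0.07 ± 0.06, overlapped between groups and had exact p of 0.3 each.

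**Figure D3:**
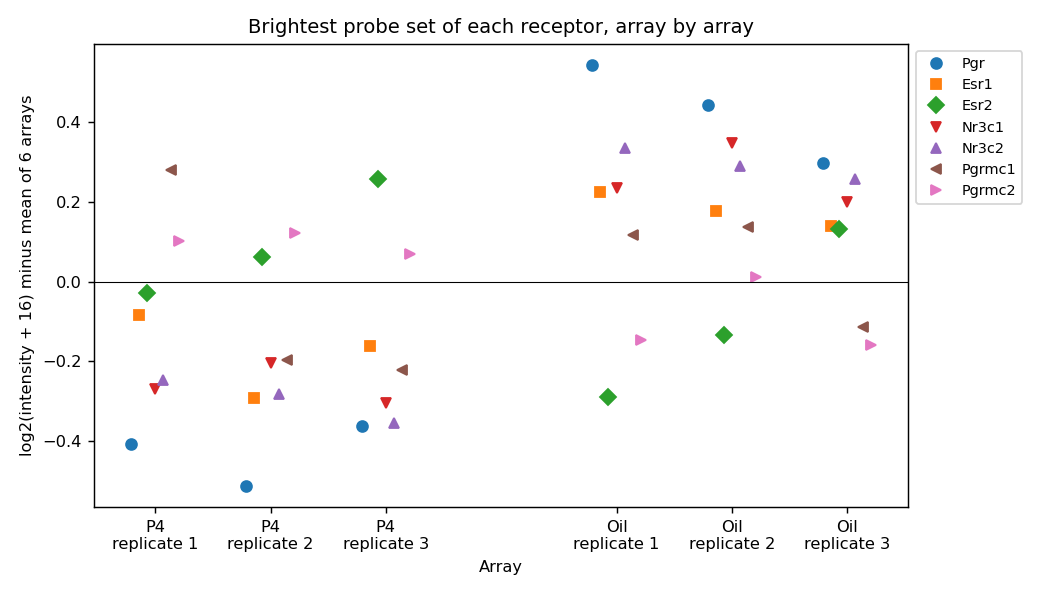
log2(intensity + 16) of each receptor's brightest probe set on each array, minus its mean over the 6 arrays, with the P4 arrays on the left and the Oil arrays on the right. Pgr, Esr1, Nr3c1 and Nr3c2 lie below 0 on all 3 P4 arrays and above 0 on all 3 Oil arrays, and Pgr is farthest from 0 among these 4 on every array.

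Genes with the array profile nearest to each called receptor were ranked by the root mean square difference of their mean-centred log2 values over the 6 arrays. For Pgr these were A630026N12Rik (0.0376), Slc14a1, a urea transporter (0.0477), and Ezh1, a histone methyltransferase (0.0525). For Nr3c2 they were Bloc1s5 (0.0209), Dclre1a, a DNA cross-link repair nuclease (0.0339), and Ptpn14, a tyrosine phosphatase (0.0351). For Nr3c1 they were Lrsam1, a ubiquitin ligase (0.0145), Depp1 (0.0250) and Foxo4, a forkhead transcription factor (0.0274). For Esr1 they were D2hgdh, a hydroxyglutarate dehydrogenase (0.0233), Prpsap1 (0.0243) and Acvr1b, an activin receptor (0.0279). Among the receptors, Nr3c1 and Nr3c2 lay nearest to each other, at 0.0657, and Pgr and Esr1 farthest apart, at 0.255. Centring was over both groups, so each distance includes the gap between the genes' P4 minus Oil differences. The distances are therefore not separate evidence.

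Cell type markers were summed in each array as a check on the makeup of the tissue. The 9 endothelial markers summed to 6494 to 6617 in P4 and 6769 to 7804 in Oil, without overlap, and 1 of them, Tek, was called lower (-0.38), a call lost without any single array other than Oil replicate 1 and after control scaling. The 4 measured adipocyte markers summed to 329.0 to 860.5 in P4 and 830.9 to 1545 in Oil, and none was called by limma (2 lower at an unadjusted p under 0.05). In each same-numbered pair of arrays the adipocyte sum was lower in P4, at 496.4 against 1466, 860.5 against 1545 and 329.0 against 830.9. With the replicate block 2 of the 4 markers were called lower, against 11.6% of all genes. Epithelial markers summed to 14406 to 22080 in P4 and 17710 to 20632 in Oil. Stromal markers summed to 37582 to 48571 in P4 and 43448 to 48724 in Oil, and smooth muscle markers to 45508 to 53447 in P4 and 49931 to 50344 in Oil. These 3 sums overlapped, with 1 gene called in each list: Cldn3 higher (1.21), Lum lower (-0.90, lost without Oil replicate 2) and Pgm5 lower (-0.62, lost without P4 replicate 3, Oil replicate 1 or Oil replicate 2 and after control scaling). The leukocyte sum ran from 1142 to 12265 in P4 and from 1447 to 9075 in Oil, with 0 of 10 called by limma and 0 at an unadjusted p under 0.05. Once the replicate number was a block, limma called 2 of 11 epithelial markers higher and 4 lower. Of 10 stromal markers, 2 were called higher and 2 lower. It called 2 of 9 endothelial markers and 1 of 11 smooth muscle markers lower. Of all genes, the block called 9.29% higher and 11.6% lower, beside 6.08% and 6.94% without it. The part of these markers in the receptor differences was not tested.

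Other genes of the receptor families and their pathways were read from the same fit. Of 39 other nuclear receptors measured, 1 was called higher and 4 lower, with a median of -0.03, against 6.08% of all genes higher and 6.94% lower. The replicate block called 2 higher and 6 lower (9.29% and 11.6% of all genes), and control scaling 2 higher and 2 lower (13.4% and 3.19%). These counts are few, and the genes are given as values and not as a result about the family. Rora, a clock receptor, was lower by a difference of -1.01 ± 0.11 (limma adjusted p = 0.00163), and Nr1d2, another clock receptor, by -0.48 ± 0.06 (0.00294). Thra, a thyroid hormone receptor, at -0.60 ± 0.15 (0.0361), and Nr4a3, an orphan receptor, at 0.89 ± 0.22 (0.0381), were less stable. The call for Thra was lost without P4 replicate 2, P4 replicate 3, Oil replicate 1 or Oil replicate 2, and after control scaling (-0.45). That for Nr4a3 was lost without any single array other than P4 replicate 3, and when all its probe sets were averaged its difference was 0.27 (0.106). The fifth called gene was Nr2c1 at -0.35 (0.0298), named after its value was seen and lost without any single array other than Oil replicate 3, after control scaling (-0.20) and when its probe sets were averaged (-0.21).

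Among 8 membrane steroid receptors and haem-binding relatives of Pgrmc1, limma called 0 higher and 0 lower (0 and 2 at an unadjusted p under 0.05), with a median of -0.17. P4 lay below Oil without overlap in 4 of them, against 17.5% of all genes, and each of the 4 missed the threshold. Paqr6, a membrane progestin receptor, averaged 73.9 ± 2.63 in P4 and 94.5 ± 12.0 in Oil (SD, n = 3 each), below the array medians. Nenf, a haem-binding relative, averaged 866 ± 18.2 in P4 and 996 ± 100 in Oil. Cyb5d2 and Gper1, a membrane oestrogen receptor, were the other two, at -0.22 each.

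Target genes of the progesterone receptor showed the opposite direction from Pgr itself. Of 17 measured, 16 were called higher and 0 lower, with a median of 1.75, beside 6.08% of all genes called higher. This list was chosen with results of these data known, so its direction is not independent evidence. Lrp2, an endocytic receptor, was higher by 3.36 ± 0.20 (limma adjusted p = 0.000421), Il13ra2, a decoy receptor for interleukin 13, by 3.05 ± 0.14 (0.00021), Cyp26a1, which degrades retinoic acid, by 2.96 ± 0.30 (0.00145), and the kinase Sgk1 by 2.57 ± 0.14 (0.000421). Without both arrays numbered 2, 7 of the 17 were called higher, against 0.544% of all genes. Without probe sets that can match several transcripts, 11 of 14 measured were called higher, against 917 of all 16591 genes. There Ptger3 went from 1.49 to -0.05 (limma adjusted p = 0.914) and Hoxa10 from 0.81 to 0.43 (0.132).

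Of 17 oestrogen receptor targets, 2 were called higher and 4 lower, with a median of 0.12, against 6.08% of all genes higher and 6.94% lower. With the replicate block the counts were 4 higher and 5 lower, against 9.29% and 11.6% of all genes. Igf1, a growth factor, was higher by 1.91 ± 0.18 (limma adjusted p = 0.000981) and Greb1 by 1.42 ± 0.12 (0.00077), while the differences of Wnt7a and Padi1 were -1.63 ± 0.14 (0.000739) and -1.18 ± 0.17 (0.0049). The other two called were Ccnd1 and Inhbb, both lower, at -0.31 and -0.82. Ccnd1 lost its call without any single array other than P4 replicate 1, and Inhbb without any single array. With scaling to the hybridisation controls the counts were 3 higher and 2 lower (13.4% and 3.19% of all genes), and Ccnd1 and Inhbb were the 2 lower calls that were lost.

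Glucocorticoid and mineralocorticoid receptor targets were called higher in 7 of 24 and lower in 2, with a median of 0.18, against 6.08% of all genes higher and 6.94% lower. Of the 7, Sgk1, Fkbp5, Zbtb16 and Errfi1 are 4 that the progesterone target list holds as well. Besides Sgk1, Fkbp5, a co-chaperone of these receptors, was higher by 2.55 ± 0.20 (limma adjusted p = 0.000609), Zbtb16 by 2.01 ± 0.26 (0.00353) and Mt1, a metallothionein, by 1.45 ± 0.16 (0.0019). Mt1 lost its call when probe sets that can match several transcripts were left out (0.0579). Pdk4, which restrains pyruvate oxidation, was lower at -1.39 and Bcl6, a transcriptional repressor, at -0.62, a call lost without P4 replicate 2 (0.0511).

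Steroid-converting enzymes had 1 of 13 called higher and 1 lower, with a median of 0.12, near the 6.08% and 6.94% of all genes. Hsd11b2, which inactivates corticosterone and so shields the mineralocorticoid receptor, was higher by 2.94 ± 0.16 (limma adjusted p = 0.000421), and Hsd17b11 was lower at -0.63 ± 0.09 (0.00418). Of 16 chaperones and co-regulators, 4 were called higher and 1 lower, with a median of 0.21, against the same shares of all genes. Beside Fkbp5, Stip1 was higher by 0.60 (0.0114), Hsp90aa1, the chaperone that holds unliganded receptors, by 0.52 (0.0173; lost without P4 replicate 2, 0.0605) and Hspa4 by 0.48 (0.00923). Ncoa2, a receptor co-activator, was lower at -0.38 (0.0213) and lost its call without any single array other than P4 replicate 1. For these 16 genes, scaling to the hybridisation controls gave 9 higher and 0 lower (13.4% and 3.19% of all genes), and the replicate block gave 8 higher and 2 lower (9.29% and 11.6%).

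**Figure D4:**
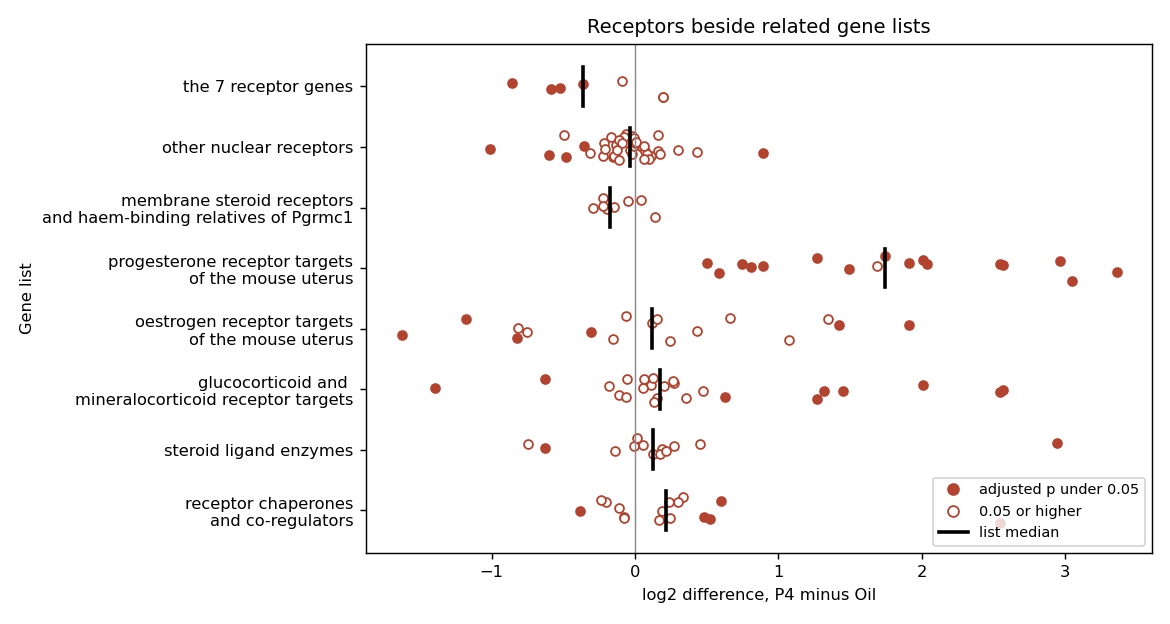
log2 difference, P4 minus Oil, of each gene in the receptor set and the related lists, 1 point per gene, filled where the limma adjusted p was under 0.05, with a line at each list's median. The receptors have a median of -0.36 and the progesterone receptor targets one of 1.75.

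The receptor differences under each other processing setting kept their direction for Pgr, Nr3c1, Nr3c2 and Esr1. Pgr lay between -0.92 and -0.80 when single arrays were left out, Nr3c2 between -0.61 and -0.56, Nr3c1 between -0.55 and -0.48 and Esr1 between -0.41 and -0.30. Leaving out both arrays numbered 2, with 2 arrays left in each group, ended all 4 calls, with limma adjusted p of 0.0577 for Pgr, 0.0936 for Nr3c1 and Nr3c2, and 0.157 for Esr1.

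**Figure D5:**
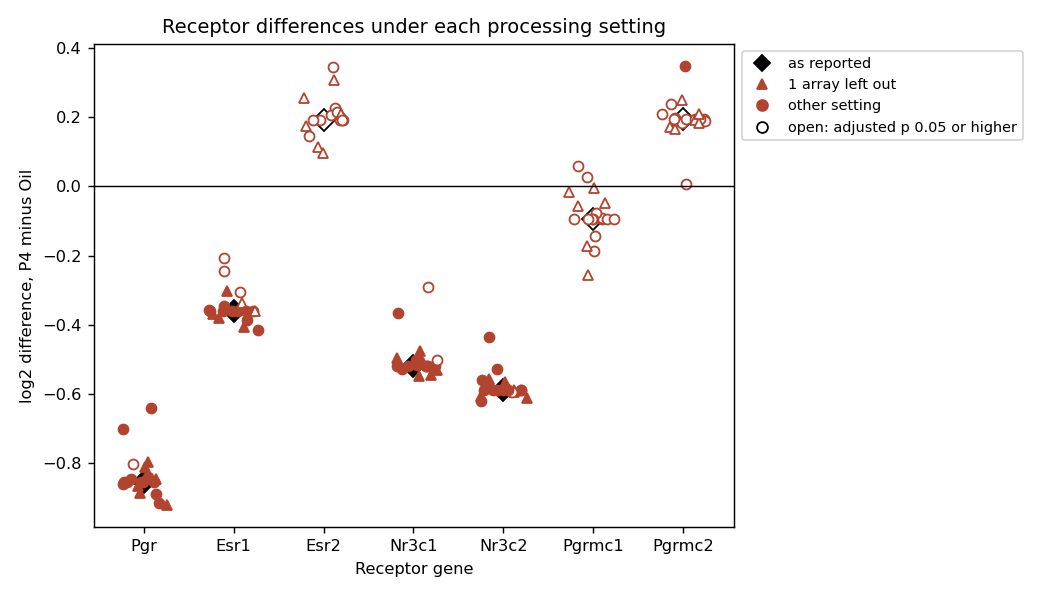
log2 difference, P4 minus Oil, of each receptor as reported (diamond), with 1 array left out (triangles) and under the other settings (circles), open where the adjusted p was 0.05 or higher. Pgr, Esr1, Nr3c1 and Nr3c2 lie below 0 under every setting run, and Pgrmc1 lies on both sides of 0.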

How the data were processed

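Total RNA from 6 uterine samples was hybridised to one-colour Affymetrix arrays, per the labels' protocols. The deposited values are intensities on a linear scale, 1 per probe set and array, made by the authors. Their summarisation and scaling are not given in the sources used. Array medians lie within 0.07 of each other on the log2 scale, and no further normalization was applied. Precision is limited by having 3 arrays per group.

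Of 45101 probe sets, 64 controls were left out, 34945 had 1 gene symbol, 932 had several and 9160 had none. Gene IDs of 34741 matched RefSeq (GRCm38.p6), and 0 symbols changed. Intensities were tested as log2(intensity + 16) with limma 3.58.1 in R 4.3.3 (lmFit and eBayes with trend), P4 minus Oil, once over the brightest probe set of each of 18193 genes and once over all probe sets that are not controls. P-values were adjusted by Benjamini-Hochberg over each whole fit, with a threshold of 0.05. Differences between receptors or probe sets were tested over arrays by exact permutation with scipy 1.17.1. The code was tested on simulated data.

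Replicate numbers come from the labels. After each group's mean was removed, P4 and Oil arrays of the same number correlated at 0.44 (number 1), 0.13 (number 2) and 0.53 (number 3). Arrays of different numbers correlated between -0.48 and 0.16. The highest of these, P4 replicate 1 with Oil replicate 2, was above the pair numbered 2. The labels do not say what a number shares. The reported fit assumed no pairing. A fit with the number as a block assumed it, and number 2 does not show it. The fit with that block was an alternative. Other alternatives were the added constant, normalization, dim probe sets, the eBayes variant, array weights, the choice of probe set and leaving out arrays.

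All receptor probe sets are named. In each related list the called genes with the 4 largest differences are named, and for each called receptor the 3 genes with the nearest profile. Other called genes are named after their values were seen, as are the promoter motifs. The receptors and lists were chosen with earlier results of these data known.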

Additional observations from a re-analysis of the deposited data

How the results depend on the processing

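The calls rest on few arrays. Leaving out single arrays gave 993 to 2302 called genes and 1550 to 3614 called probe sets, and 3 to 7 receptor probe sets. Leaving out both arrays numbered 2 gave 171 genes and 346 probe sets. In that fit limma called 0 receptor genes and 0 receptor probe sets (4 and 8 at an unadjusted p under 0.05), with differences of -0.81 for Pgr, -0.60 for Nr3c2, -0.50 for Nr3c1, -0.31 for Esr1 and 0.027 for Pgrmc1. With the replicate block, 3801 genes and 6673 probe sets were called, and the block changed no receptor call other than that of Nr3c1 1457635_s_at. The mean of all probe sets of a gene left 2 receptor genes called, Pgr and Nr3c2, both lower. That fit called 2195 of all 18193 genes, 1115 of them lower. Esr1, at -0.24, and Nr3c1, at -0.29, lost their calls in it. Scaling to the hybridisation controls moved the median of all genes to 0.14 and made 80.8% of called genes higher, against 46.7% as reported. It left 3 receptor probe sets called, all lower. Of all 45037 probe sets it called 5615, with 933 of them lower. The receptor differences were -0.70 for Pgr, -0.44 for Nr3c2, -0.37 for Nr3c1, -0.21 for Esr1, 0.060 for Pgrmc1 and 0.35 for Pgrmc2. Esr1 ran from -0.41 to -0.30 without single arrays. For Nr3c1 1431378_at the sign turned with array weights (-0.0037) and ran from -0.076 to 0.096 without single arrays, and for 1453860_s_at it was 0.074 with control scaling and -0.21 to 0.0049 without single arrays. The causes were not tested. Esr2 has no value without the dimmest 50% of probe sets or without probe sets that can match several transcripts. Probe sets dimmer than the array medians limit Esr2 and 3 of the Nr3c1 probe sets. Pgr 1421444_at was also below the array median on each P4 array.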

Other observations

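Same-numbered P4 and Oil arrays were also compared directly, though the labels do not say that they are pairs. Of the 17 receptor probe sets, 9 were lower in P4 in all 3 such pairs, 2 were higher in all 3 and 6 were mixed. Of all 45037 probe sets, 24.8% were lower in all 3 pairs and 22.3% higher. For Nr3c2 the differences, P4 minus Oil, were -0.58, -0.57 and -0.61 for numbers 1, 2 and 3, and for Nr3c1 1460303_at they were -0.50, -0.55 and -0.50. Pgr 1439527_at gave -0.95, -0.96 and -0.66, with number 3 nearest to 0, and Esr1 1460591_at gave -0.31, -0.47 and -0.30.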
